A study of Mus musculus with 9 samples.

Results

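Endocytosis brings surface proteins, particles and membrane into the cell in vesicles, and the endosomes that receive them send the cargo back to the surface, to the Golgi or on to the lysosome. Receptors are gathered by adaptors into clathrin-coated pits, dynamin cuts the pit free, Arf and Rab GTPases mark the membranes, retromer and sorting nexins recycle cargo, and the ESCRT complexes pack ubiquitin-tagged receptors into vesicles inside the endosome for degradation. Microglia, the resident macrophages of the brain, use this system to take up proteins and debris and to control how long receptors stay at the surface.

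The endocytosis genes described here are the rows of an FPKM table whose pathway annotation holds the term Endocytosis, with a mean of at least 1 FPKM over the 9 libraries. FPKM are fragments scaled by the length of the transcript and by the size of the library. Rows that also held 1 of 5 larger pathway terms (Phagosome, Lysosome, Regulation of actin cytoskeleton, Protein processing in endoplasmic reticulum and Ubiquitin mediated proteolysis) and rows of the H2- major histocompatibility genes were left out. The rule kept 83 of the 128 rows with the term, in a table of 6462 genes of which 5643 reached a mean of 1 FPKM. Of the 45 rows not kept, each counted once, 8 were H2- genes, 29 others held 1 of the 5 terms and the last 8 failed only the limit on level. The rule used no difference between groups. Just inside the limit on level were Psd3 (mean 1.0242 FPKM) and Rab11fip2 (1.5052 FPKM), and just outside were Ehd2 (0.4786 FPKM) and Snx32 (0.4005 FPKM).

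RNA had been sequenced from BV2 cells, a mouse microglial line immortalized with a retrovirus and grown in culture, so the brain named as tissue in the labels is the origin of the line. The groups were untreated cells at 0 h, cells with 200 ng/ml lipopolysaccharide (LPS, a component of the bacterial outer membrane that activates Toll-like receptor 4) for 1 h, and cells with the same dose for 12 h, with 3 libraries each. The series was made in a study of the kinase PLK2 in microglial activation. The untreated cells were taken at 0 h alone, and the effects of LPS and of hours in culture cannot be told apart. Nothing in the labels ties the libraries to separate cultures, and p-values then measure only the spread between these libraries, which may be technical.

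All rows of the table carry the authors' flag for a difference, so the genes had been selected on these same samples and the share of called genes is high throughout. The listed FPKM of a library summed to between 195872 and 198075 in the untreated group, between 203515 and 205413 in the 1 h group and between 223720 and 228207 in the 12 h group. Read counts are not given, so the depth is unknown. Libraries of 1 group correlated at 0.9981 to 0.9986 over log2 values and libraries of different groups at 0.9241 to 0.9698. Of 10 microglia and macrophage markers 8 were in the table, with summed levels between 1250 and 1350 FPKM in untreated libraries, between 1200 and 1240 FPKM in 1 h libraries and between 1100 and 1150 FPKM in 12 h libraries. None of 5 astrocyte, 5 neuron or 5 endothelial markers was in the table, and of 5 oligodendrocyte markers only Olig2 was, at 0 to 0.0841 FPKM in untreated libraries and 0 in the others. Because the table lists only genes flagged for a difference, a missing marker may be unchanged at any level. Its absence therefore does not show that a cell type was absent. In bulk samples of this kind, fewer expressing cells and less RNA per cell cannot be told apart.

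Most endocytosis genes moved by small amounts, and more of them were higher after 12 h with LPS than after 1 h. Among the largest changes were increases of Ehd1, a recycling ATPase, of Rab11fip1, a partner of the recycling GTPase Rab11, and of Arap1, which switches off Arf GTPases. Decreases of like size were those of the arrestin Arrb1 and of Asap1, which also switches off Arf GTPases. The largest decrease was that of the chemokine receptor Cxcr4, with a mean of 0.491 FPKM in 12 h cells, against 5.42 FPKM in untreated cells. Differences are given as differences of log2(FPKM + 1), a scale that shrinks those of genes near 0, and a gene was called higher or lower at a limma adjusted p under 0.05 over all tested genes. A value in parentheses after a gene or time is this difference. Where leaving out 1 library or making the distributions of the libraries equal (quantile normalization) ended a call, or added one, the difference under that setting is given in the same way. After 1 h, 14 of the 83 genes were called higher, 16.9%, against 24.1% of all tested genes. In the same comparison 28 were called lower, 33.7%, against 34.9% of all tested genes, and 41 were not called. After 12 h, 41 were called higher, 49.4%, against 41.1% of all tested genes. At that time 27 were called lower, 32.5%, against 40.6% of all tested genes, and 15 were not called. Against untreated cells, the shares of the endocytosis genes thus lay within 10 percentage points of the shares of all tested genes in each direction and at both times. For 12 h against 1 h the gap was wider in 1 direction, with 27.7% called lower, against 43.6% of all tested genes. In that comparison 51.8% were called higher, against 41.9%.

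**Figure D1:**
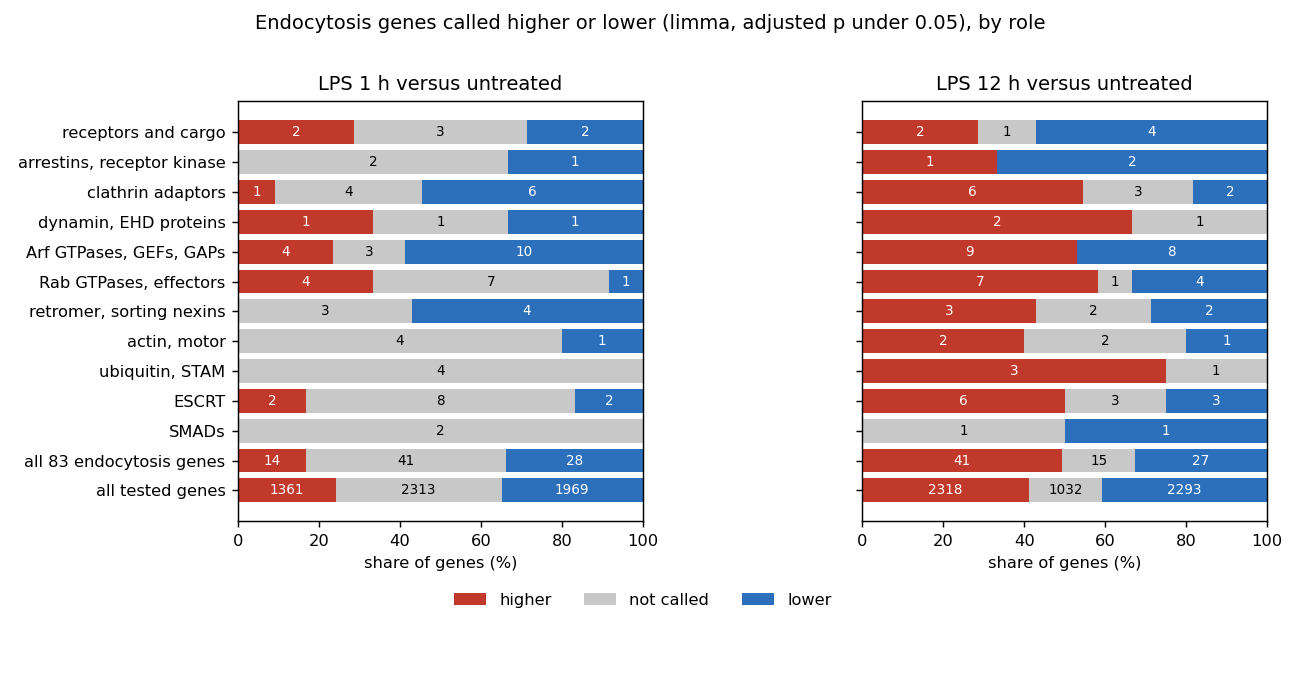
Share of endocytosis genes called higher, not called or called lower (limma, adjusted p under 0.05) in LPS 1 h (left) and LPS 12 h (right) cells against untreated cells, by role, with the number of genes in each bar segment. The 2 bars at the bottom give all 83 genes and all tested genes; the share called higher was 16.9% at 1 h and 49.4% at 12 h.

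The sizes were modest beside those of the table. The median difference of the 83 genes was -0.04 at 1 h and 0.08 at 12 h, against -0.03 and 0.03 for all tested genes. The median size without regard to sign was 0.11 at 1 h and 0.23 at 12 h, against 0.14 and 0.32 for all tested genes. A called difference of at least 0.5 in size was seen in 13 endocytosis genes at 12 h, 15.7%, against 29.3% of all tested genes. At 1 h it was 9 genes, 10.8%, against 9.11% of all tested genes. In an F test over the 3 groups 76 of the 83 genes passed, against 94.3% of all tested genes. The 7 that did not pass were the clathrin adaptor subunit Ap2m1, the endophilin Sh3gl1, Smad2, the actin capping subunit Capza1, Wipf2, the retromer subunit Vps35 and the ubiquitin-binding adaptor Stam. The summed level of the 83 genes lay between 2522 and 2577 FPKM in untreated libraries, between 2550 and 2561 FPKM in 1 h libraries and between 2817 and 2855 FPKM in 12 h libraries, which is at most 1.3%, 1.26% and 1.26% of the listed FPKM. Their mean levels spanned 1.02 to 201 FPKM with a median of 17.6 FPKM. The median coefficient of variation within a group was 3.37% in untreated cells, 3.02% at 1 h and 3.37% at 12 h. Of the called genes, 2 at 1 h (Vps37b and Rab10) and 6 at 12 h (Arfgap2, Chmp2b, Ist1, Tsg101, Sh3glb1 and Snx6) had LPS and untreated libraries that overlapped. Such overlap was not counted over all tested genes, so these counts are not read as a trait of the endocytosis genes.

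**Figure D2:**
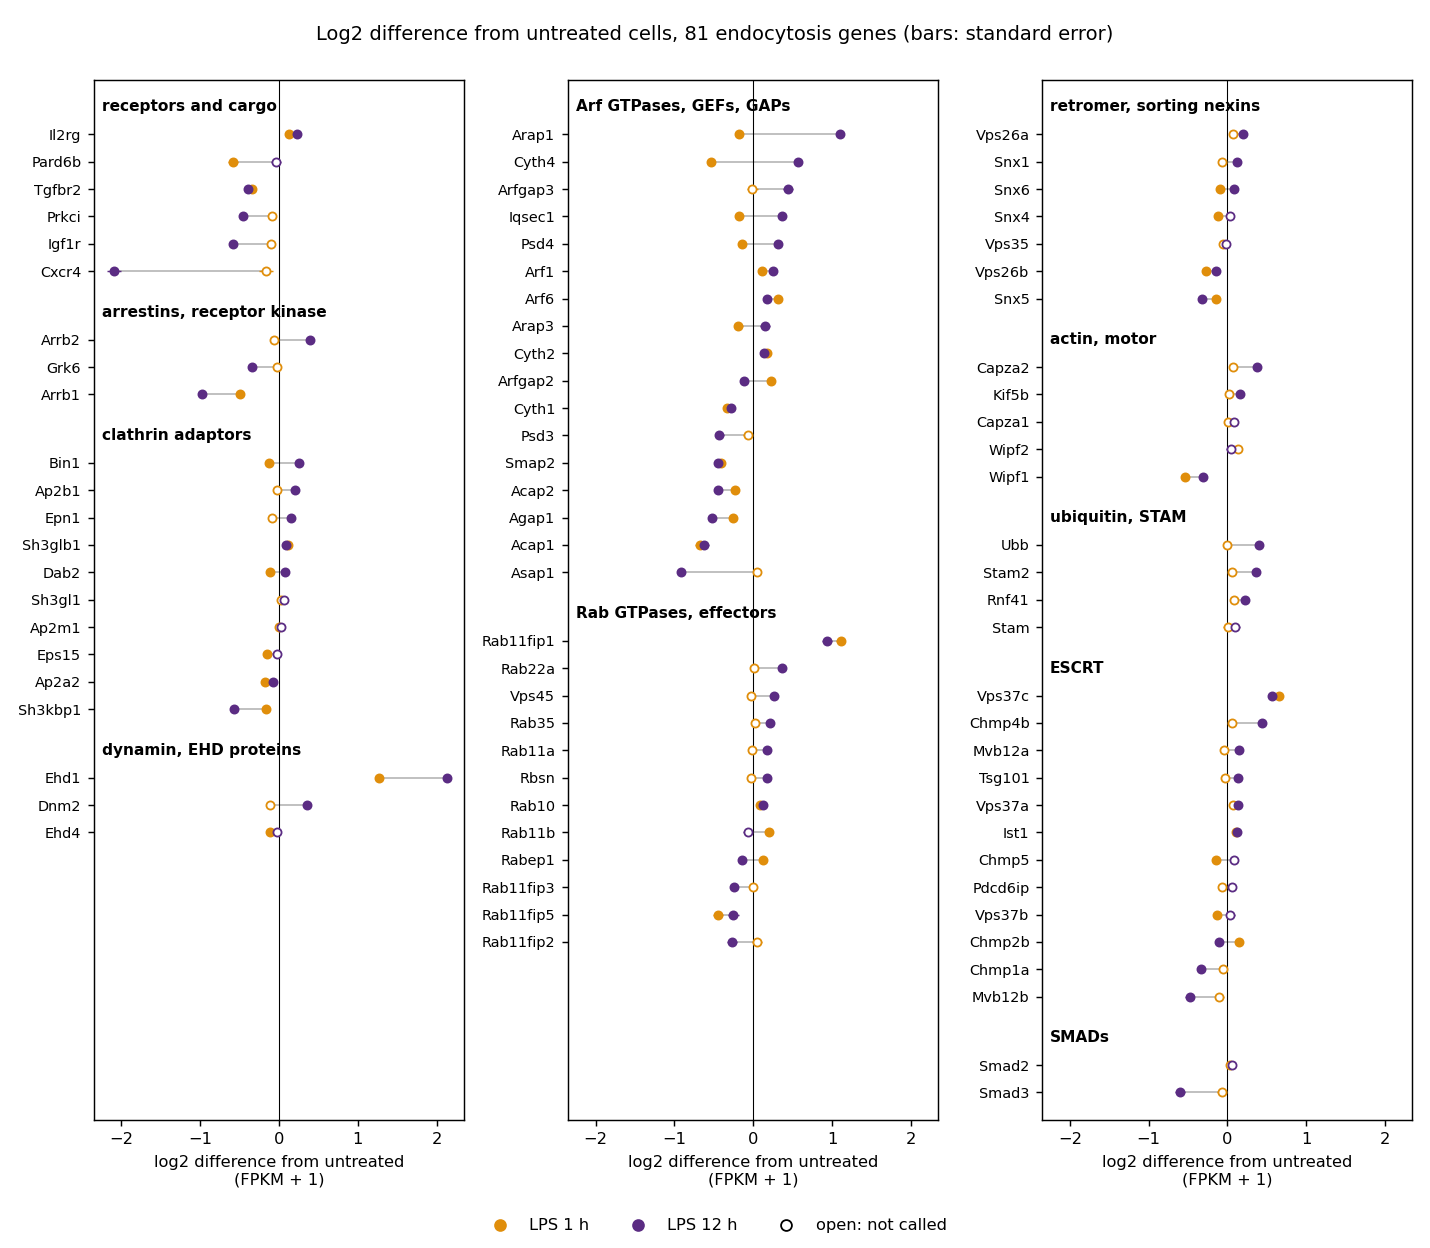
Log2 difference of FPKM + 1 from untreated cells for 81 of the 83 endocytosis genes after 1 h (orange) and 12 h (purple) with LPS, grouped by role and ordered by the 12 h value. Filled points are called at an adjusted p under 0.05, open points are not, and bars are standard errors; Ehd1 reached 2.13 and Cxcr4 -2.10 at 12 h while most points lay close to 0.

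In the GENCODE M21 annotation, 31 of the 83 genes have an exon that overlaps an exon of another gene. The overlap lies on the same strand in 7 of them, Arap1, Arap3, Arrb2, Il2rg, Rab11a, Rab11fip5 and Stam2, and their values may include reads of the other gene however strand was treated. It lies only on the opposite strand in the other 24, Ap2a2, Ap2b1, Arf6, Arfgap2, Bin1, Capza1, Cyth2, Dab2, Dnm2, Iqsec1, Ist1, Kif5b, Psd3, Rab10, Rab11b, Rab11fip1, Rab11fip3, Rab22a, Rabep1, Sh3gl1, Snx5, Vps35, Vps37a and Vps37b. The library kit keeps strand, but whether the counting used it is not given in the sources used here, so these values may also include reads of the overlapping gene. On the same strand, the other gene is by its name a microRNA gene for Arap3 (Mir6981), Arrb2 (Mir7115) and Rab11fip5 (Mir705). It is Gm45837 for Arap1, Gm20489 for Il2rg, Gm47308 for Rab11a and Gm13548 for Stam2.

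The counts by role that follow stand beside the shares of all tested genes, of which 24.1% were higher and 34.9% lower at 1 h, and 41.1% higher and 40.6% lower at 12 h. Among 7 receptors and receptor-linked proteins, 2 were called higher and 2 lower at 1 h, and 2 higher and 4 lower at 12 h. Il2rg, the signalling chain shared by several interleukin receptors, rose by 0.13 at 1 h and 0.23 at 12 h, with means of 57.5 FPKM in untreated cells, 63.1 FPKM after 1 h and 67.8 FPKM after 12 h. Il2rg (0.07) lost the 1 h call under quantile normalization, which gave 0.10 for Il2rg at 12 h.

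Cxcr4, the receptor for the chemokine CXCL12, was at 5.97, 5.65 and 4.63 FPKM in untreated cells, 5.57, 4.25 and 4.44 FPKM after 1 h and 0.463, 0.456 and 0.553 FPKM after 12 h. The 12 h libraries lay far below the other 6, while the 1 h and untreated libraries overlapped. At 12 h the difference was -2.10 ± 0.089 (SE; limma adjusted p = 2.75e-11), and a pseudocount of 0.1 in place of 1 gave -3.22. At 1 h it was -0.16 ± 0.089 (limma adjusted p = 0.139) and not called, but it was called without LPS 1 h library 1 (-0.26) or untreated library 3 (-0.25). The insulin-like growth factor receptor Igf1r was at 6.14, 6.37 and 5.90 FPKM in untreated cells, 5.53, 5.61 and 5.78 FPKM after 1 h and 3.60, 3.92 and 3.67 FPKM after 12 h. Its 1 h libraries lay just below the untreated ones and its 12 h libraries below all others, with a difference of -0.59 ± 0.048 (SE; limma adjusted p = 3.47e-08) at 12 h and an uncalled -0.10 at 1 h. The receptor subunit Tgfbr2, which binds TGF-β, fell at both times, with differences of -0.34 at 1 h and -0.39 at 12 h.

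Pard6b and Prkci are partners in a cell polarity complex and carry the same pathway term. Pard6b, its adaptor subunit, was at 6.12, 6.23 and 6.49 FPKM in untreated cells, 3.86, 4.05 and 3.70 FPKM after 1 h and 6.61, 6.28 and 5.35 FPKM after 12 h. Only the 1 h libraries stood apart, below the other 6, and the 12 h and untreated libraries overlapped. The difference was -0.58 ± 0.063 at 1 h (SE; limma adjusted p = 2.51e-06), -0.04 at 12 h (not called) and 0.54 for 12 h against 1 h. Prkci, its atypical protein kinase C, was lower at 12 h (-0.46) and not called at 1 h (-0.09).

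The SMAD proteins carry the signal of TGF-β receptors to the nucleus. Smad3 was at 4.45, 4.52 and 4.80 FPKM in untreated cells, 4.08, 4.20 and 4.74 FPKM after 1 h and 2.74, 2.91 and 2.41 FPKM after 12 h. The 12 h libraries lay below all others and the 1 h libraries overlapped with the untreated ones. The difference was -0.60 ± 0.063 at 12 h (SE; limma adjusted p = 5.67e-07) and an uncalled -0.07 at 1 h. Smad2 gave 0.04 at 1 h and 0.06 at 12 h, neither of them called, and the difference between the 2 genes was not tested. Quantile normalization added a call for Smad2, higher at 12 h (0.13).

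Arrestins bind receptors that a G protein-coupled receptor kinase has phosphorylated, stop their signal and link them to clathrin. Arrb1, which encodes β-arrestin 1, was at 20.4, 18.7 and 18.3 FPKM in untreated cells, 12.8, 13.6 and 13.5 FPKM after 1 h and 8.91, 9.20 and 9.52 FPKM after 12 h. The 3 groups did not overlap, and the level was lower at each later time. The difference was -0.49 ± 0.046 at 1 h and -0.98 ± 0.046 at 12 h (SE; limma adjusted p = 5.64e-07 and 8.77e-11). Arrb2, which encodes β-arrestin 2, moved the other way at 12 h, by 0.39 ± 0.034 (SE; limma adjusted p = 7.54e-08), after an uncalled -0.06 at 1 h. Per length, Arrb2 was the more abundant of the pair in every group, with means of 42.9 FPKM in untreated cells, 41.0 FPKM at 1 h and 56.4 FPKM at 12 h. The receptor kinase Grk6 was lower at 12 h (-0.34) and not called at 1 h (-0.03). After quantile normalization Arrb2 was called lower at 1 h (-0.14) and gave 0.25 at 12 h.

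The 11 clathrin adaptors and accessory proteins gave 1 higher and 6 lower at 1 h, and 6 higher and 2 lower at 12 h. The AP-2 complex is the main adaptor of the plasma membrane, and its 3 listed subunits did not move together. Ap2b1 was higher at 12 h (0.20), Ap2a2 was lower at 1 h (-0.18) and 12 h (-0.07), and Ap2m1, the subunit that reads tyrosine sorting signals, gave 0.00 and 0.03 and was called at neither time. After quantile normalization Ap2m1 was called lower at 12 h (-0.13). Ap2a2 lost its 12 h call without any 1 of the LPS 12 h libraries or any 1 of the LPS 1 h libraries or untreated library 1 or 3 (-0.09 to -0.06). Quantile normalization gave -0.14 for Ap2a2 at 12 h and 0.09 for Ap2b1 at 12 h. Quantile normalization added a call for Ap2b1, lower at 1 h (-0.09).

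Dab2, which links receptors and their cargo to clathrin, was lower at 1 h (-0.12) and higher at 12 h (0.07), the second of which turned to a called decrease of -0.13 under quantile normalization. Dab2 lost its 12 h call without LPS 12 h library 1 or 3 or untreated library 3 (0.05 to 0.07). Quantile normalization gave -0.22 for Dab2 at 1 h.

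Sh3kbp1, a scaffold that joins the ubiquitin ligase Cbl to endophilin on activated receptors, was at 6.47, 6.69 and 6.72 FPKM in untreated cells, 6.08, 5.69 and 5.76 FPKM after 1 h and 3.97, 4.24 and 4.25 FPKM after 12 h. The libraries of the 3 groups did not overlap and each later group was lower. The difference was -0.16 ± 0.046 at 1 h and -0.57 ± 0.046 at 12 h (SE; limma adjusted p = 0.0101 and 3.81e-08). Bin1, a membrane-bending protein of the amphiphysin family, was lower at 1 h (-0.13) and higher at 12 h (0.26). Epn1, a ubiquitin-binding epsin, was higher at 12 h (0.15) and the coated-pit scaffold Eps15 lower at 1 h (-0.15). Of the endophilins, Sh3glb1 was called higher at both times (0.11 and 0.09) and Sh3gl1 at neither (0.03 and 0.06). Epn1 was called at 1 h without LPS 1 h library 3 (-0.13). Sh3glb1 lost its 1 h call without LPS 1 h library 1 or 3 or untreated library 1 or 2 (0.09 to 0.11). Sh3glb1 lost its 12 h call without LPS 12 h library 1 or 3 or LPS 1 h library 1 or 3 or untreated library 1 or 2 (0.07 to 0.09). Sh3kbp1 (-0.10) lost the 1 h call under quantile normalization, as did Epn1 (0.07) the 12 h call. Quantile normalization added a call for Epn1, lower at 1 h (-0.15) and Eps15, lower at 12 h (-0.09).

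Ehd1 encodes an ATPase that shapes the tubules through which receptors return from the recycling compartment to the surface, and it was the endocytosis gene with the largest increase at both times. It was at 17.2, 17.2 and 17.9 FPKM in untreated cells, 42.9, 42.8 and 44.8 FPKM after 1 h and 81.4, 77.1 and 81.5 FPKM after 12 h. The groups did not overlap, and each later group was higher. The difference was 1.27 ± 0.034 at 1 h and 2.13 ± 0.034 at 12 h (SE; limma adjusted p = 3.19e-13 and 1.14e-15), and the 12 h libraries exceeded the 1 h libraries by 0.86. Its relative Ehd4 gave -0.12 at 1 h, called lower, and an uncalled -0.02 at 12 h, although it was called lower at 12 h under quantile normalization (-0.14). Dnm2, the widely expressed dynamin that cuts vesicle necks, was higher at 12 h by 0.36, with a mean of 16.5 FPKM in 12 h cells, against 12.6 FPKM in untreated cells, and gave an uncalled -0.11 at 1 h. Dnm2 was called at 1 h without untreated library 3 (-0.15). Quantile normalization gave -0.20 for Ehd4 at 1 h.

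**Figure D3:**
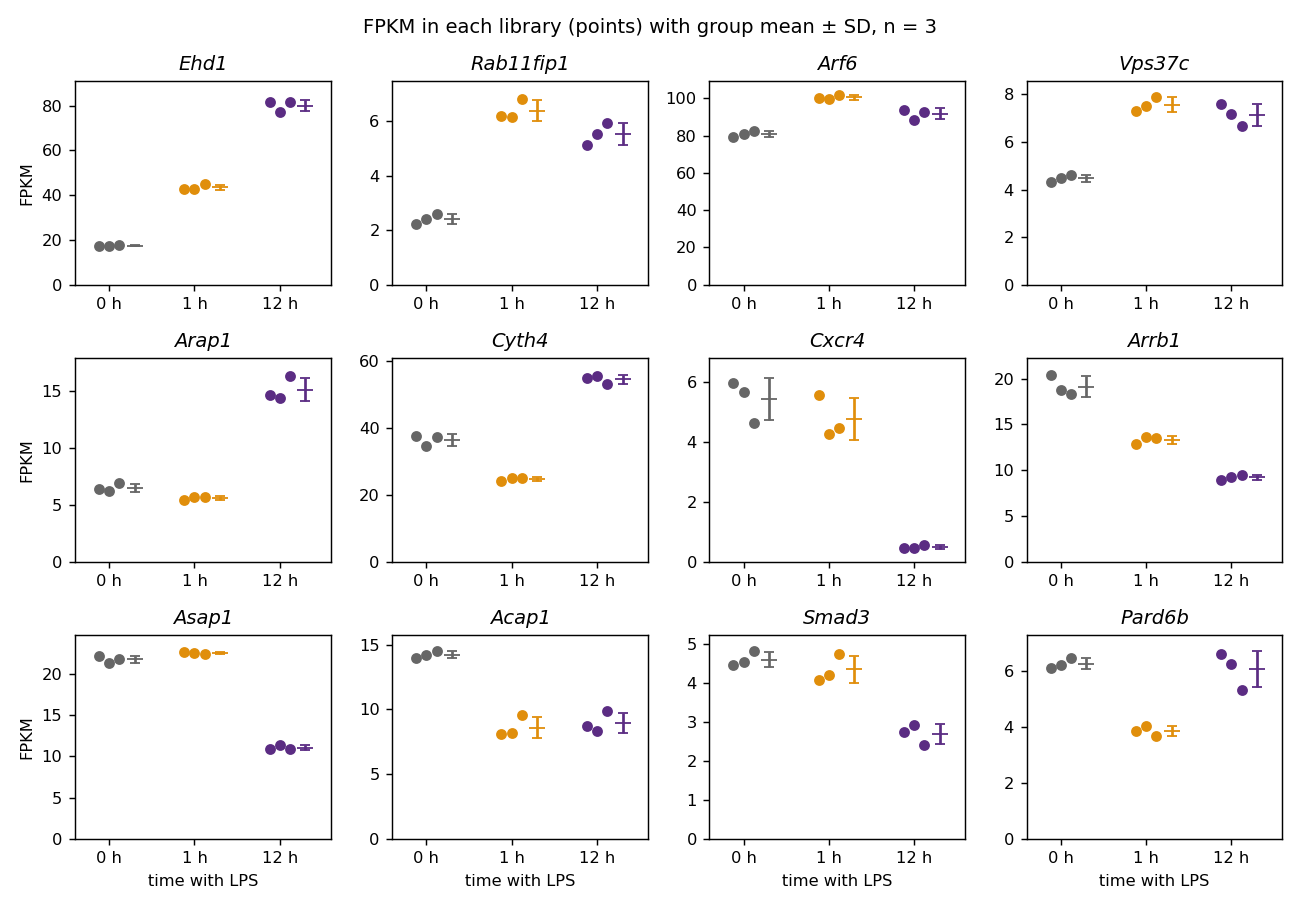
FPKM in each library (points) with the mean ± SD of 3 libraries, at 0 h, 1 h and 12 h with LPS, for 12 endocytosis genes with large differences. Ehd1, Rab11fip1, Arf6 and Vps37c were higher in all LPS libraries than in untreated ones, Arap1 and Cyth4 were highest at 12 h, Cxcr4, Arrb1, Asap1 and Smad3 were lowest at 12 h, and Acap1 and Pard6b lay below untreated cells at 1 h.

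Arf GTPases recruit coats and lipid enzymes to membranes, exchange factors load them with GTP, and GTPase-activating proteins switch them off. This was the largest group, with 17 genes, of which 4 were higher and 10 lower at 1 h, and 9 higher and 8 lower at 12 h. Each of the 17 was called at 12 h, when 18.3% of all tested genes were not. Arf6, which acts at the plasma membrane and in recycling, was at 79.3, 80.7 and 82.3 FPKM in untreated cells, 100, 99.5 and 102 FPKM after 1 h and 94.0, 88.3 and 92.9 FPKM after 12 h. All LPS libraries lay above the untreated ones, with a difference of 0.31 ± 0.030 at 1 h and 0.18 ± 0.030 at 12 h (SE; limma adjusted p = 8.49e-07 and 6.47e-05). Arf1, which recruits coats at the Golgi, was among the most abundant endocytosis genes, with a mean of 185 FPKM in untreated cells, and was called higher at 1 h (0.11) and 12 h (0.25), but gave -0.01 and 0.01 after quantile normalization. Arf6 (0.00) lost the 12 h call under quantile normalization.

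Of the 6 exchange factors, 1 was higher and 4 were lower at 1 h, and 4 were higher and 2 lower at 12 h. Cyth4, a cytohesin of blood cells, was at 37.4, 34.4 and 37.2 FPKM in untreated cells, 24.0, 25.0 and 25.0 FPKM after 1 h and 54.8, 55.5 and 53.0 FPKM after 12 h. The 1 h libraries lay below and the 12 h libraries above the untreated ones. The difference was -0.54 ± 0.037 at 1 h and 0.57 ± 0.037 at 12 h (SE; limma adjusted p = 2.06e-08 and 3.2e-09). Cyth2 was at 8.90, 8.74 and 9.42 FPKM in untreated cells, 9.98, 10.6 and 10.2 FPKM after 1 h and 9.47, 10.3 and 10.2 FPKM after 12 h. Its LPS libraries lay just above the untreated ones, with differences of 0.17 ± 0.046 at 1 h and 0.14 ± 0.046 at 12 h (SE; limma adjusted p = 0.00657 and 0.0139). Iqsec1 and Psd4, both acting on Arf6, were lower at 1 h (-0.18 and -0.14) and higher at 12 h (0.36 and 0.32). Cyth1 was lower at both times (-0.33 and -0.28), and the weakly expressed Psd3 was lower at 12 h (-0.43) and not called at 1 h (-0.07). With a pseudocount of 0.1 Psd3 gave -0.82 at 12 h. Cyth2 lost its 12 h call without LPS 12 h library 2 or untreated library 2 (0.11 to 0.12). Iqsec1 (-0.12) lost the 1 h call under quantile normalization, which gave -0.15 for Cyth1 at 12 h and -0.26 for Psd3 at 12 h.

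The 9 activating proteins gave 1 higher and 6 lower at 1 h, and 3 higher and 6 lower at 12 h. Arap1, which acts on Arf GTPases, was at 6.40, 6.16 and 6.89 FPKM in untreated cells, 5.43, 5.70 and 5.71 FPKM after 1 h and 14.6, 14.4 and 16.3 FPKM after 12 h. The 12 h libraries lay far above all others and the 1 h libraries just below the untreated ones, with differences of -0.18 ± 0.054 at 1 h and 1.10 ± 0.054 at 12 h (SE; limma adjusted p = 0.0116 and 1.32e-10). Arap3, a close relative, was also lower at 1 h (-0.19) and higher at 12 h (0.15). Arfgap3, a Golgi protein, was at 7.31, 6.27 and 7.02 FPKM in untreated cells, 7.11, 6.39 and 6.91 FPKM after 1 h and 8.85, 9.59 and 10.5 FPKM after 12 h. Only its 12 h libraries stood apart, higher by 0.44 ± 0.065 (SE; limma adjusted p = 1.82e-05). Arfgap2, its relative, was at 25.7, 23.1 and 24.8 FPKM in untreated cells, 29.2, 29.0 and 28.4 FPKM after 1 h and 21.3, 23.9 and 22.1 FPKM after 12 h. The 1 h libraries lay above all untreated ones, whereas the 12 h and untreated libraries overlapped, with differences of 0.23 ± 0.046 at 1 h and -0.12 ± 0.046 at 12 h (SE; limma adjusted p = 0.000702 and 0.0217). Arap1 lost its 1 h call without untreated library 3 (-0.14). Arap3 lost its 12 h call without LPS 12 h library 2 or 3 or untreated library 1 or 2 (0.11 to 0.14). Arfgap2 lost its 12 h call without LPS 12 h library 1 or 3 or untreated library 1 or 3 (-0.12 to -0.09). Arap1 (-0.13) and Arap3 (-0.09) lost the 1 h call under quantile normalization, which gave 0.28 for Arap3 at 12 h.

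The other 5 activating proteins were lower at 12 h. Asap1, which is found at focal adhesions and invasive membranes, was at 22.2, 21.4 and 21.8 FPKM in untreated cells, 22.7, 22.6 and 22.4 FPKM after 1 h and 10.9, 11.4 and 10.9 FPKM after 12 h. Its 12 h libraries were all below 12 FPKM and the other 6 all above 21 FPKM. The difference was -0.92 ± 0.035 at 12 h (SE; limma adjusted p = 8.11e-12) and an uncalled 0.05 at 1 h. Acap1, which acts on Arf6 in recycling, was at 14.0, 14.2 and 14.5 FPKM in untreated cells, 8.07, 8.16 and 9.54 FPKM after 1 h and 8.71, 8.33 and 9.84 FPKM after 12 h. The LPS libraries of both times lay below the untreated ones and overlapped each other, with differences of -0.67 ± 0.063 at 1 h and -0.62 ± 0.063 at 12 h (SE; limma adjusted p = 5.87e-07 and 4.07e-07). Agap1 was at 5.55, 5.50 and 5.51 FPKM in untreated cells, 4.57, 4.35 and 4.56 FPKM after 1 h and 3.51, 3.40 and 3.76 FPKM after 12 h. Its groups did not overlap and the 12 h libraries were lowest, with differences of -0.25 ± 0.048 at 1 h and -0.52 ± 0.048 at 12 h (SE; limma adjusted p = 0.000551 and 1.46e-07). Smap2, which binds clathrin, was at 19.2, 18.6 and 18.9 FPKM in untreated cells, 13.8, 14.2 and 14.0 FPKM after 1 h and 14.2, 13.7 and 12.9 FPKM after 12 h. All its LPS libraries lay below the untreated ones, with differences of -0.41 ± 0.040 at 1 h and -0.45 ± 0.040 at 12 h (SE; limma adjusted p = 9.36e-07 and 9.73e-08). Acap2, which also acts on Arf6, was lower at both times (-0.23 and -0.45).

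Rab GTPases give each endosome its identity, and Rab11 with its interacting proteins (FIPs) drives recycling. The 12 genes of this group gave 4 higher and 1 lower at 1 h, and 7 higher and 4 lower at 12 h. Rab11fip1, a FIP that links Rab11 to recycling vesicles, was at 2.23, 2.40 and 2.61 FPKM in untreated cells, 6.18, 6.16 and 6.82 FPKM after 1 h and 5.14, 5.52 and 5.95 FPKM after 12 h. Every LPS library was at least at 5 FPKM and no untreated library reached 3 FPKM. The difference was 1.11 ± 0.061 at 1 h and 0.94 ± 0.061 at 12 h (SE; limma adjusted p = 1.47e-09 and 3.19e-09). The 12 h libraries were lower than the 1 h libraries, with a difference of -0.18 (limma adjusted p = 0.0152), a call that ended without LPS 12 h library 1 (-0.13) or LPS 1 h library 3 (-0.14).

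The other 3 FIPs were lower at 12 h. Rab11fip5 was at 5.81, 5.27 and 5.01 FPKM in untreated cells, 3.66, 3.42 and 3.89 FPKM after 1 h and 4.30, 3.96 and 4.79 FPKM after 12 h. All LPS libraries lay below all untreated ones, with differences of -0.45 ± 0.066 at 1 h and -0.25 ± 0.066 at 12 h (SE; limma adjusted p = 5.28e-05 and 0.00289). Rab11fip2 and Rab11fip3 were lower at 12 h (-0.27 and -0.24) and not called at 1 h (0.05 and 0.00). After quantile normalization they were instead called higher at 1 h (0.23 and 0.16), and with a pseudocount of 0.1 Rab11fip2 gave -0.44 at 12 h. Rab11fip2 (-0.04) and Rab11fip3 (-0.07) lost the 12 h call under quantile normalization, which gave -0.16 for Rab11fip5 at 12 h.

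Of the 5 GTPases none was called lower at either time. Rab11b was at 7.01, 6.21 and 7.10 FPKM in untreated cells, 7.67, 8.51 and 7.65 FPKM after 1 h and 6.50, 6.52 and 6.10 FPKM after 12 h. Its 1 h libraries lay above the untreated ones, with a difference of 0.20 ± 0.056 (SE; limma adjusted p = 0.00676), and the 12 h value of -0.07 was not called. Rab22a, an early endosome GTPase, was higher at 12 h by 0.36, Rab35 by 0.22 and Rab11a by 0.17, and none of these was called at 1 h. Rab10 was higher at 1 h (0.09) and 12 h (0.13). Rabaptin (Rabep1), which binds Rab5 on early endosomes, was higher at 1 h (0.13) and lower at 12 h (-0.14). Rabenosyn (Rbsn), another Rab5 effector, and Vps45, the fusion factor it binds, were both higher at 12 h (0.17 and 0.26) and not called at 1 h (-0.03 and -0.03). Rab10 lost its 1 h call without LPS 1 h library 2 or 3 or untreated library 1 or 3 (0.07 to 0.08). Rab10 (0.03) and Rabep1 (0.08) lost the 1 h call under quantile normalization, as did Rab35 (0.09), Rab11a (0.01) and Rab10 (0.01) the 12 h call. That setting gave 0.41 for Vps45 at 12 h.

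Retromer, built of Vps26, Vps29 and Vps35, and the sorting nexins retrieve cargo from endosomes before it reaches the lysosome. Of 7 genes, none was called higher and 4 lower at 1 h, and 3 were higher and 2 lower at 12 h. Snx5, a membrane-curving nexin, was at 150, 148 and 149 FPKM in untreated cells, 138, 134 and 131 FPKM after 1 h and 118, 120 and 120 FPKM after 12 h. The groups did not overlap and each later group was lower, with differences of -0.15 ± 0.026 at 1 h and -0.32 ± 0.026 at 12 h (SE; limma adjusted p = 0.000257 and 4.25e-08). Its partners moved otherwise at 12 h, Snx1 with 0.12 and Snx6 with 0.08, both called higher, although quantile normalization turned these to uncalled values of -0.02 and -0.07. At 1 h Snx6 was called lower (-0.09) and Snx1 was not called (-0.07). Snx4, which returns the transferrin receptor, was lower at 1 h (-0.12) and not called at 12 h (0.03). Snx1 was called at 1 h without LPS 1 h library 2 or untreated library 2 (-0.10 to -0.09). Snx6 lost its 1 h call without LPS 1 h library 2 or 3 or untreated library 1 or 3 (-0.10 to -0.07). Snx6 lost its 12 h call without LPS 12 h library 2 or 3 or untreated library 2 or 3 (0.06 to 0.08). Quantile normalization gave -0.23 for Snx5 at 1 h, -0.18 for Snx6 at 1 h and -0.19 for Snx4 at 1 h. Quantile normalization added a call for Snx1, lower at 1 h (-0.13).

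The alternative Vps26 subunits were called in opposite directions at 12 h. Vps26a was higher at 12 h (0.20) and Vps26b lower at 1 h (-0.27) and 12 h (-0.14). Per length, Vps26a was the more abundant, with means of 38.2 FPKM in untreated cells, 40.2 FPKM at 1 h and 44.0 FPKM at 12 h, beside 7.89, 6.38 and 7.05 FPKM of Vps26b. The core subunit Vps35 gave -0.05 and -0.02 and was called at neither time, but quantile normalization gave called decreases of -0.17 at 1 h and -0.21 at 12 h. Vps26a was called at 1 h without LPS 1 h library 2 (0.11). Vps26b lost its 12 h call without LPS 12 h library 3 or untreated library 1 (-0.11). Vps26b (-0.08) lost the 12 h call under quantile normalization, which gave 0.09 for Vps26a at 12 h.

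Actin filaments push vesicles inward and kinesins carry endosomes along microtubules. Of the 5 genes, none was called higher and 1 lower at 1 h, and 2 were higher and 1 lower at 12 h. Wipf1, which stabilizes the actin nucleation factor WASP in blood cells, was at 21.8, 21.8 and 21.9 FPKM in untreated cells, 14.7, 14.4 and 15.1 FPKM after 1 h and 17.5, 17.5 and 17.5 FPKM after 12 h. The groups did not overlap and the 1 h libraries were lowest. The difference was -0.54 ± 0.034 at 1 h and -0.31 ± 0.034 at 12 h (SE; limma adjusted p = 6.16e-09 and 8.8e-07). Its relative Wipf2 was called at neither time (0.13 and 0.05), but was called higher at both after quantile normalization (0.26 and 0.19). The actin capping subunit Capza2 was higher at 12 h by 0.38, with a mean of 125 FPKM in 12 h cells, against 96.0 FPKM in untreated cells. The capping subunit Capza1 gave 0.01 and 0.08, not called at either time. The 12 h value was called without LPS 1 h library 1 or 2. The kinesin heavy chain Kif5b was higher at 12 h by 0.16 and not called at 1 h (0.02). Wipf2 was called at 1 h without LPS 1 h library 2 (0.19). Capza2 was called at 1 h without LPS 12 h library 2 or LPS 1 h library 3 (0.07 to 0.09). Quantile normalization gave 0.18 for Capza2 at 12 h and 0.09 for Kif5b at 12 h.

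Ubiquitin marks receptors for degradation, STAM proteins hold the marked cargo, and the further ESCRT complexes sort it. Of 4 ubiquitin and STAM genes, none was called at 1 h and 3 were higher at 12 h. Ubb, a polyubiquitin gene, was at 180, 172 and 172 FPKM in untreated cells, 174, 180 and 171 FPKM after 1 h and 229, 230 and 232 FPKM after 12 h. The 12 h libraries lay above all others and the 1 h libraries overlapped with the untreated ones. In 12 h cells it differed by 0.40 ± 0.028 (SE; limma adjusted p = 7.54e-09), falling to 0.14 after quantile normalization, which also gave a called decrease of -0.11 at 1 h. Ubb shares its repeated ubiquitin units with other ubiquitin genes, so its value depends on how shared reads were assigned and is uncertain. It made up 6.70% to 8.18% of the summed level of the 83 genes. Stam2 was higher at 12 h by 0.37 and the ubiquitin ligase Rnf41 by 0.23. Stam gave 0.01 at 1 h and 0.10 at 12 h, neither called, though the 12 h value was called without LPS 12 h library 3 (0.16) or untreated library 3 (0.15), and under quantile normalization (0.15). Rnf41 was called at 1 h without untreated library 1 (0.12).

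The 12 genes listed as ESCRT, a list that leaves out Stam and Stam2, gave 2 higher and 2 lower at 1 h. At 12 h they gave 6 higher and 3 lower. Vps37c, an ESCRT-I subunit, was at 4.32, 4.47 and 4.62 FPKM in untreated cells, 7.29, 7.51 and 7.90 FPKM after 1 h and 7.61, 7.16 and 6.66 FPKM after 12 h. All LPS libraries lay above all untreated ones, and the 2 LPS groups overlapped. The difference was 0.65 ± 0.052 at 1 h and 0.57 ± 0.052 at 12 h (SE; limma adjusted p = 1.23e-07 and 1.26e-07). Of its alternative subunits, Vps37a was higher at 12 h (0.13) and Vps37b lower at 1 h (-0.13; limma adjusted p = 0.0498). Tsg101, the ESCRT-I subunit that binds ubiquitin, was higher at 12 h by 0.13. Mvb12a and Mvb12b, interchangeable subunits of the same complex, went apart at 12 h, with 0.15 for Mvb12a, called higher, and -0.48 for Mvb12b, called lower. Mvb12a was the more abundant per length, with 44.0 FPKM in 12 h cells, against 39.5 FPKM in untreated cells, and Mvb12b had 2.15 FPKM in 12 h cells, against 3.39 FPKM in untreated cells. Vps37a lost its 12 h call without untreated library 1 (0.10). Vps37b lost its 1 h call without any 1 of the LPS 12 h libraries or any 1 of the LPS 1 h libraries or untreated library 1 or 3 (-0.14 to -0.09). Tsg101 lost its 12 h call without LPS 12 h library 2 or 3 or untreated library 1 or 2 (0.10 to 0.12). Mvb12a lost its 12 h call without LPS 12 h library 3 (0.10). Vps37b (-0.12) lost the 1 h call under quantile normalization, as did Tsg101 (0.08) and Mvb12a (0.04) the 12 h call.

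Chmp4b, the main filament-forming ESCRT-III subunit, was at 138, 128 and 131 FPKM in untreated cells, 136, 136 and 142 FPKM after 1 h and 185, 172 and 183 FPKM after 12 h. Its 12 h libraries lay above all others. Against untreated cells they differed by 0.44 ± 0.035 (SE; limma adjusted p = 2.53e-08), or 0.23 after quantile normalization, and the 1 h libraries by an uncalled 0.06. Chmp1a was lower at 12 h (-0.33), Chmp2b higher at 1 h (0.15) and lower at 12 h (-0.10), and Chmp5 lower at 1 h (-0.14). Ist1, which resembles ESCRT-III subunits, was higher at 12 h by 0.12. Pdcd6ip (ALIX), which bridges ESCRT-I and ESCRT-III, was called at neither time (-0.07 and 0.06). Chmp4b was called at 1 h without untreated library 1 (0.09). Chmp2b lost its 12 h call without LPS 12 h library 2 or 3 or LPS 1 h library 1 or untreated library 1 or 3 (-0.10 to -0.07). Chmp5 lost its 1 h call without LPS 1 h library 3 or untreated library 3 (-0.11 to -0.09). Chmp5 was called at 12 h without untreated library 3 (0.13). Ist1 was called at 1 h without LPS 1 h library 3 or untreated library 2 (0.14 to 0.15). Ist1 lost its 12 h call without LPS 12 h library 2 or 3 or untreated library 1 or 3 (0.08 to 0.12). Pdcd6ip was called at 1 h without untreated library 2 (-0.09). Pdcd6ip was called at 12 h without LPS 12 h library 2 (0.08). Chmp2b (0.10) lost the 1 h call under quantile normalization, as did Ist1 (0.03) the 12 h call. That setting gave -0.21 for Chmp2b at 12 h. Quantile normalization added a call for Chmp1a, lower at 1 h (-0.12) and Pdcd6ip, lower at 1 h (-0.13).

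Set side by side, the 2 comparisons with untreated cells share those control libraries, so their patterns are given as counts only. The most common pattern was no call at 1 h and a higher level at 12 h, seen in 22 genes, 26.5%, against 18.4% of all tested genes. It was followed by lower at both times in 13 genes, 15.7%, against 20.3% of all tested genes. Higher at both times were 10 genes, 12.0%, against 13.9% of all tested genes, among them Ehd1, Rab11fip1, Vps37c, Arf6, Il2rg, Arf1, Cyth2, Sh3glb1 and Rab10. In 11 genes the level was lower at 12 h with no call at 1 h, 13.3%, against 16.2% of all tested genes. In 6 genes it was lower at 1 h with no call at 12 h, 7.23%, against 5.94% of all tested genes. In 1 gene, Rab11b, it was higher at 1 h with no call at 12 h, 1.20%, against 6.03% of all tested genes. No call at either time was made in 8 genes, 9.64%, against 6.33% of all tested genes. A total of 9 genes were lower at 1 h and higher at 12 h, 10.8%, against 8.70% of all tested genes, and 3 were higher at 1 h and lower at 12 h, 3.61%, against 4.15%. Compared directly, 12 h and 1 h cells gave 43 genes called higher at 12 h, 51.8%, against 41.9% of all tested genes. In the same comparison 23 were called lower, 27.7%, against 43.6% of all tested genes.

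**Figure D4:**
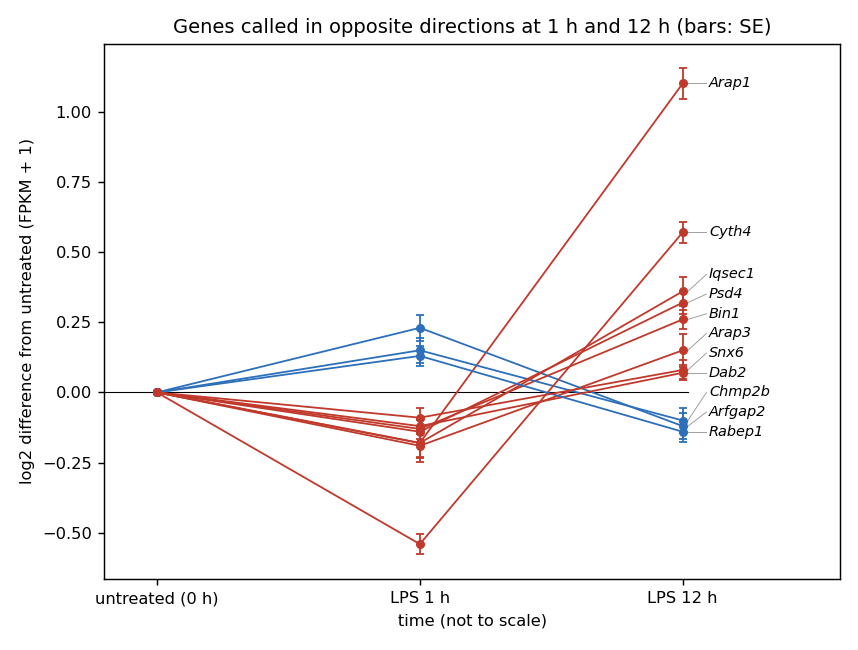
Log2 difference of FPKM + 1 from untreated cells (set to 0) at 1 h and 12 h with LPS for 11 of the endocytosis genes called in opposite directions at the 2 times; bars are standard errors. The 8 genes in red were lower at 1 h and higher at 12 h, led by Arap1 (1.10 at 12 h) and Cyth4 (0.57), and the 3 in blue were higher at 1 h and lower at 12 h.

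The ratios within 4 pairs of related genes are given as a description, with no test, because the pairs were chosen after their values were seen. The log2 ratio of Arrb1 to Arrb2 FPKM ran between -1.19 and -1.11 in untreated libraries, between -1.65 and -1.59 in 1 h libraries and between -2.70 and -2.53 in 12 h libraries. That of Ehd1 to Ehd4 ran between -1.53 and -1.47 in untreated libraries, between -0.09 and -0.05 in 1 h libraries and between 0.65 and 0.74 in 12 h libraries. These 2 ratios changed in 1 direction over the 3 times without overlap between groups. That of Smad3 to Smad2 ran between -0.45 and -0.33 in untreated libraries, between -0.68 and -0.42 in 1 h libraries and between -1.38 and -1.19 in 12 h libraries. That of Mvb12b to Mvb12a ran between -3.66 and -3.47 in untreated libraries, between -3.71 and -3.56 in 1 h libraries and between -4.43 and -4.22 in 12 h libraries. In both, the 1 h libraries overlapped with the untreated ones and the 12 h libraries lay below.

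Further rows carried the term Endocytosis but were not among the 83 genes. Of all tested genes, 24.1% were higher and 34.9% lower at 1 h, and 41.1% higher and 40.6% lower at 12 h. Of the 28 tested rows without an H2- symbol, 6 were called higher and 6 lower at 1 h, 21.4% in each direction. At 12 h 13 of these rows were higher, 46.4%, and 3 lower, 10.7%. The largest differences at 1 h were 1.23 for Mdm2, a ubiquitin ligase of p53, 0.49 for Pip5k1a, a kinase that makes the lipid bound by AP-2, 0.33 for the transferrin receptor Tfrc and 0.30 for Wasl, which starts actin filaments. At 12 h they were 0.97 for Mdm2, -0.90 for the ubiquitin ligase Wwp1, 0.63 for the early endosome tether Eea1 and 0.52 for Tfrc. Of 7 tested H2- rows, which encode proteins that present antigens, 3 were called higher and 3 lower at 1 h and 7 higher at 12 h, led by H2-T24 (1.69), H2-T23 (1.02) and H2-K1 (0.73), genes whose close copies can share reads.

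A list of 68 further genes of endocytosis and endosomal sorting that do not carry the term had 40 genes in the table and 39 that were tested. Of these, 7 were called higher, 17.9%, and 14 lower, 35.9%, at 1 h. At 12 h 18 of the tested genes of the list were higher, 46.2%, and 13 lower, 33.3%. The largest differences at 1 h were 1.90 for Rab20, 0.76 for the Rab5 exchange factor Rabgef1, -0.73 for Rin2, which also acts on Rab5, and -0.52 for the endosomal adaptor Appl2. At 12 h they were 1.96 for the scavenger receptor Msr1, 1.80 for Rab20, -1.70 for Rin2 and 0.92 for the sorting nexin Snx20. Of the 80 tested genes with the term Phagosome, 65 were called higher, 81.2%, and 11 lower, 13.8%, at 12 h, with a median difference of 0.30. Of all tested genes, 41.1% were higher and 40.6% lower at 12 h. Of 73 tested genes with the term Lysosome, 35 were higher, 47.9%, and 28 lower, 38.4%, at 12 h, with a median of 0.07. Of 87 with the term Regulation of actin cytoskeleton, 42 were higher, 48.3%, and 28 lower, 32.2%, at 12 h, with a median of 0.06. These lists share genes with one another, and no test of a difference from the endocytosis genes was made.

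Promoter sequences from RefSeq (GRCm38.p6, 250 bases before to 50 bases after the start) were at hand for 64 of the 83 genes, with 88 promoters. The E-box CACGTG, which reads the same on both strands and is bound by factors such as MITF, TFEB and MYC, was found in 11 of the 88 promoters, 12.5%, against 7.15% of all 32851 promoters of the same length. These belonged to 9 genes, namely Ap2m1, Arap1, Epn1, Pard6b, Pdcd6ip, Psd4, Snx5, Vps26a and Wipf2. Searched on both strands, the κB consensus was found in 1 promoter, 1.14%, against 4.51% of all promoters. The AP-1 site TGAGTCA was found in 3, 3.41%, against 5.2%, and the interferon-stimulated response element in 3, 3.41%, against 3.44%. The matches are descriptions of letters in these windows. The stretches below are those of called genes whose E-box lies before the start. A link between the E-box and the change of a gene was not tested. The capitals mark the E-box, and each stretch runs 5′ to 3′ on the strand of the gene. The windows of Vps26a hold 3 such matches before a start, and the one nearest to its start is shown.
Snx5 (chr2:144270597-144270642, - strand): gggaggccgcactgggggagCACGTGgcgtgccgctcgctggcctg
Vps26a (chr10:62486724-62486769, - strand): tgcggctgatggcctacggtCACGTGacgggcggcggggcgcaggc
Epn1 (chr7:5080189-5080234, + strand): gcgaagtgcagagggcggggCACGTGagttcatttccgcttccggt
Pard6b (chr2:168080912-168080957, + strand): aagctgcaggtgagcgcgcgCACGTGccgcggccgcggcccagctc
Snx5 was lower at both times, Vps26a and Epn1 were higher at 12 h with no call at 1 h, and Pard6b was lower at 1 h with no call at 12 h. The only κB match, here in capitals, was also in the promoter of Pard6b.
Pard6b (chr2:168080763-168080812, + strand): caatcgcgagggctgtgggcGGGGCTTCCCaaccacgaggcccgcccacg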

How the data were processed

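RNA was taken up in TRIzol and made into libraries with a stranded kit for polyadenylated RNA, per the labels. The authors deposited 1 table of FPKM per gene and library. Trimmomatic, HISAT2, Cufflinks, HTSeq and DESeq are named without versions or roles in the submitters' processing notes, which give the build as GRCh38 although the genes carry mouse symbols and mouse gene IDs. All rows carry the authors' flag for a difference. The deposited p-value and q-value columns and a rank score, named so per the file headers, were not used here because no source gives the test behind them. Read counts are not in this table, so no count model, interval or detection limit was used.

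Genes with a mean of at least 1 FPKM over the 9 libraries (5643 of 6462) entered a linear model of log2(FPKM + 1) in limma 3.58.1 (R 4.3.3), with 1 mean per group, all 9 libraries in 1 fit and empirical Bayes moderation with a trend. P-values were adjusted over all tested genes by the Benjamini-Hochberg method and genes called at an adjusted p under 0.05. All 83 members enter the counts and medians, and 2 of them are not reported one by one here. The fit was checked on simulated data in which few genes were changed, and at 1 h alone. Most genes of the real table differ, so that check does not cover the calls made here. The members and the gene lists were chosen with earlier results of these data known. Roles come from a hand-written list, and that of Ubb was added after the table was read. Values in every library are given for the 8 largest increases and 8 largest decreases at each time among called members whose groups did not overlap, and for the member with the largest F of each role, while other lists are named by their 4 largest differences. Promoters were searched in a RefSeq table of GRCm38.p6.

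Each result was recomputed without single libraries, with library numbers as blocks, with just the 6 libraries of a comparison in the fit, and with moderation that had no trend. Further alternatives were a pseudocount of 0.1, no limit on level or a mean of at least 5 FPKM, and median-of-ratios or quantile scaling.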

Additional observations from a re-analysis of the deposited data

Results flagged for a closer look

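Of the 83 endocytosis genes, 12 were called in opposite directions at 1 h and 12 h of LPS against untreated cells, and in each the difference between the 2 times was itself tested in the limma fit. Over all 5643 tested genes 725 showed such a pattern. Lower at 1 h and higher at 12 h were 10.8% of the endocytosis genes, against 8.70% of all tested genes. Higher at 1 h and lower at 12 h were 3.61%, against 4.15%. These shares lie close together, and the 12 genes are not set apart from the table by the pattern. For the 11 described here, the log2 difference of 12 h cells from 1 h cells was 1.28 for Arap1, 1.11 for Cyth4, 0.55 for Iqsec1, 0.46 for Psd4, 0.39 for Bin1, 0.34 for Arap3, 0.19 for Dab2 and 0.18 for Snx6. It was -0.35 for Arfgap2, -0.28 for Rabep1 and -0.26 for Chmp2b. The limma adjusted p of this difference was 2.63e-12 for Cyth4, 2.92e-11 for Arap1 and 0.000205 for Snx6. The genes were picked by opposite calls in the same fit, so small p-values follow from that choice and are not separate support. For Dab2 and Snx6 the 12 h value against untreated cells turned negative under quantile normalization. Others lost a call against untreated cells in at least 1 alternative. Arap1, Iqsec1 and Rabep1 lost the 1 h call, and Arfgap2 lost the 12 h call. Arap3, Chmp2b and Snx6 lost the call at each of the 2 times. Only Cyth4, Psd4 and Bin1 kept both calls under every alternative.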

How the results depend on the processing

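Of the genes called at 1 h, 29 of 42 were called in the same direction under all alternatives that tested them, 12 lost the call in at least 1 and 1 changed sign. At 12 h it was 46 of 68, with 21 that lost it and 3 that changed sign (Dab2 and Snx6 did both), and for 12 h against 1 h it was 59 of 66, with 7 that lost it and none that changed sign. Of the genes not called, 20 of 41 at 1 h, 10 of 15 at 12 h and 4 of 17 between the times were called in at least 1 alternative. The shares of all tested genes under the alternatives were not counted, so the counts of members in this section stand without them. Quantile normalization gave 12 genes higher and 31 lower at 1 h, and 32 higher and 29 lower at 12 h. Under it Arf1 (-0.01) and Ubb (-0.11) were negative at 1 h, and Dab2 (-0.13), Ap2m1 (-0.13), Snx6 (-0.07) and Snx1 (-0.02) at 12 h, and the cause was not tested. It gave median differences of the members of -0.08 at 1 h, 0.01 at 12 h and 0.09 between the times. For all tested genes its medians were -0.04, -0.02 and -0.02. A mean of at least 5 FPKM, which 70 of the 83 genes reached, gave medians of -0.03, 0.11 and 0.13 and left 15 genes called lower at 12 h against 1 h and 18 at 12 h against untreated cells, with fewer genes tested. Median-of-ratios scaling gave a median of -0.03 at 1 h. Leaving out 1 library at a time gave medians of -0.06 to -0.04 at 1 h, 0.07 to 0.10 at 12 h and 0.10 to 0.13 between the times, with 35 to 42 genes called higher at 12 h and 13 to 15 at 1 h.

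With the library number as a block, 15 genes were called higher and 27 lower at 1 h, 39 and 26 at 12 h, and 43 and 23 between the times, and 76 passed the F test. Residuals of libraries with the same number correlated at -0.0666 to 0.1278 over the tested genes, so the numbers were not taken as a pairing. The depth is unknown, and 3 libraries per group limit the precision of differences near 0.1.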
